A study of Mus with 8 samples.

Results

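The cytosolic ribosomal protein genes are the nuclear genes that encode the protein subunits of the ribosome outside the mitochondrion. They were taken by name from the deposited gene table: protein-coding genes called Rps or Rpl with a number, together with Rpsa, Rplp0, Rplp1 and Rplp2, and with at least 80 counts summed over the 8 libraries. The table lists 54532 genes, of which 84 matched by name and 78 reached the count minimum, 31 of the small subunit and 47 of the large subunit. The rule itself used no comparison between groups, but the members were chosen with earlier results of these data known. All 78 also passed the filter on low counts and were tested.

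The data are RNA sequencing of mouse liver. All animals received 2.5% dextran sulfate sodium (DSS), a sulfated polysaccharide that injures the colonic epithelium and causes colitis, until day 6. The labels place 4 libraries (15, 48, 49 and 50) in a group named DSS and 4 (35, 45, 65 and 71) in a group named DSSHA that had alcohol and a high-fat diet in addition, given together, so that their effects cannot be told apart. The design text also mentions a purified feed, but the labels do not say what the DSS group ate, and they give no strain, sex, age or batch. No mice without DSS were analysed here. The labels do not state that each library is a separate mouse, so the p-values speak only of spread among libraries, which may be technical.

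The small subunit reads the messenger RNA and checks the match of codon and anticodon, and the large subunit joins amino acids and holds the tunnel through which the new protein leaves. Each ribosome holds 1 copy of nearly every ribosomal protein. The messenger RNAs of these genes begin with a run of pyrimidines (the TOP motif). This motif lets the growth kinase mTORC1 and the protein LARP1 adjust the translation and stability of these messenger RNAs together. In liver they serve a tissue that makes most plasma proteins.

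Sequencing gave 12502300 to 16967839 counts a library. Genes of the mitochondrial genome took 55.8 to 79.1% of them in the DSS group and 30.2 to 73.0% in the DSSHA group, which left 2722757 to 10947612 counts for nuclear genes. Diet-alcohol library 35 stood apart from the other 7, also within the ribosomal protein genes, and ribosomal protein fold changes given here that move by over 1.5 times without it are also given without it. Among hepatocyte markers, Alb (albumin) had 30192 to 50256 CPM (counts scaled to a TMM-adjusted library size) in DSS libraries and 14781 to 23397 in DSSHA libraries, which did not overlap (edgeR adjusted p = 0.115). Fgb (fibrinogen) went the other way without overlap (log2 fold change 1.12, edgeR adjusted p = 0.094).

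Ribosomal protein genes had higher fitted values in the DSSHA group without any of them passing the test. All 78 had a positive log2 fold change, from 0.01 to 1.01, against 49.5% of the 11729 genes tested. The median was 0.60 for the small subunit and 0.48 for the large subunit, or 1.51-fold and 1.39-fold, where the median over all genes tested was -0.01. No single gene passed the test (edgeR's quasi-likelihood test, threshold 0.05 after adjustment), where 1.26% of all genes tested did. At an unadjusted p under 0.05, 20 of 31 small subunit genes and 20 of 47 large subunit genes were higher and none was lower, against 5.94% of all genes tested that were higher and 5.72% that were lower. These counts depended on single libraries: without DSS 15, 48, 49 or 50 they were 37, 21, 24 and 21 of 78, against 5.8, 4.33, 4.32 and 4.41% of all genes. Without DSSHA 35, 45, 65 or 71 they were 32, 26, 36 and 49, against 7.15, 5.01, 6.94 and 6.07%.

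DESeq2 called 5 of the 78 higher (3 small, 2 large; 1.34% of the genes it gave an adjusted p were called higher), and limma-voom called 0 (0.392% of all genes), with 37 higher at an unadjusted p under 0.05 (4.48%). The authors' deposited values for the members were nearly those of this DESeq2 run, so they are no separate result. They list an adjusted p under 0.05 for 5 members, with a lowest value of 0.0407. Of all genes with a deposited p, 2.09% had an adjusted p under 0.05, counted in either direction. In 29 of 78 genes, 15 small and 14 large, the lowest DSSHA library was above the highest DSS library, and in 0 the groups separated the other way. The share of all genes tested that separated upwards was 4.14%, and downwards 4.63%. Leaving out DSS 15, 48, 49 or 50 gave 42, 29, 33 and 30 separated members, against 6.75, 5.11, 5.03 and 5.18% of all genes. Leaving out DSSHA 35, 45, 65 or 71 gave 35, 31, 30 and 55, against 6.66, 5.36, 7.18 and 6.42%, so library 71 closed the gap between groups in many members. Bulk liver RNA cannot tell more transcripts per cell from a change in which cells were sampled.

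**Figure D1:**
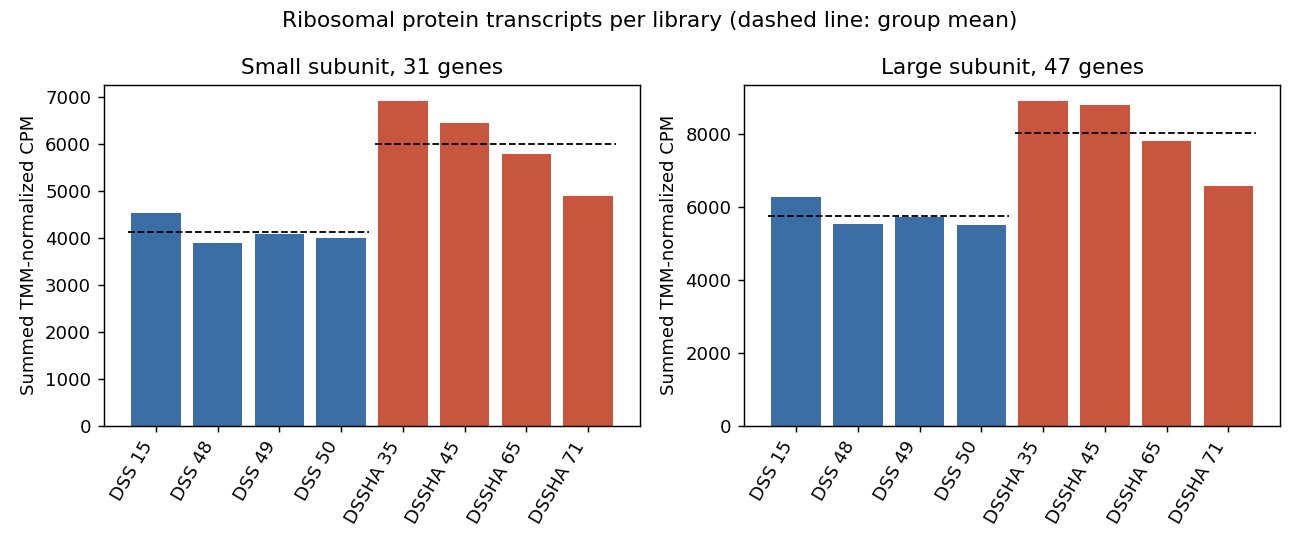
Summed TMM-normalized CPM of the 31 small and 47 large subunit genes in each library, with DSS libraries in blue, DSSHA libraries in red and dashed group means. The 4 DSSHA sums lie above the 4 DSS sums in both panels, with library 71 nearest to the DSS group.

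Summed over the 31 small subunit genes, DSS libraries 15, 48, 49 and 50 had 4535, 3897, 4095 and 4003 CPM. Diet-alcohol libraries 35, 45, 65 and 71 had 6918, 6445, 5784 and 4887. The groups did not overlap, and library 71 was the lowest of its group. Over the 47 large subunit genes the sums were 6274, 5523, 5736 and 5494 CPM in the DSS group. They were 8906, 8806, 7804 and 6572 CPM in the DSSHA group, again without overlap and with library 71 lowest. The group means were 4132 ± 281 and 6009 ± 881 CPM for the small subunit, and 5757 ± 361 and 8022 ± 1087 CPM for the large subunit (SD, n = 4 each).

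As a share of all counts from nuclear genes, ribosomal protein genes made up 2.81, 2.21, 2.16 and 2.34% of DSS 15, 48, 49 and 50. For DSSHA 35, 45, 65 and 71 the shares were 3.91, 3.39, 3.56 and 2.76%. Such a share does not use the TMM adjustment, but it also moves with the counts of all other nuclear genes. On this scale the groups overlapped, because library 71 (2.76%) was below DSS library 15 (2.81%). The means were 2.38% ± 0.296 and 3.41% ± 0.482 (SD, n = 4 each), a difference of 1.03 percentage points. Small subunit counts were 0.723, 0.706, 0.714 and 0.729 of the large subunit counts in the DSS libraries. That ratio was 0.777, 0.732, 0.741 and 0.744 in the DSSHA libraries, so it was slightly higher there and the groups did not overlap. Library 35 had the highest ratio.

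**Figure D2:**
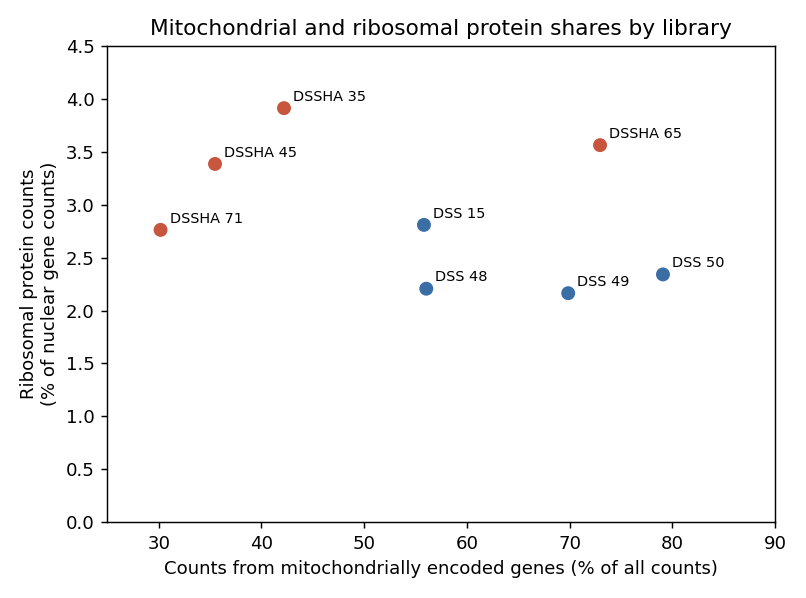
Each point is a library, with counts from mitochondrially encoded genes on the x axis (percent of all counts) and ribosomal protein counts on the y axis (percent of nuclear gene counts), DSS in blue and DSSHA in red. DSS 49 and DSSHA 65 lie close together on the x axis, at 69.9 and 73.0%, and apart on the y axis, at 2.16 and 3.56%.

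The mitochondrial share varied between libraries as well. Diet-alcohol 65 and DSS 49 had similar mitochondrial shares, 73.0 and 69.9%, and ribosomal protein shares of 3.56 and 2.16%. Diet-alcohol 71 had the lowest mitochondrial share, 30.2%, and the lowest ribosomal protein share of its group. In a fit that held the mitochondrial share as a covariate, the median log2 fold change was 0.54 for the small and 0.46 for the large subunit. In that fit 76 of 78 genes were positive, against 48.8% of all genes, none passed (0.469% of all genes did), and 23 had an unadjusted p under 0.05 and were higher, against 4.48% of all genes.

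**Figure D3:**
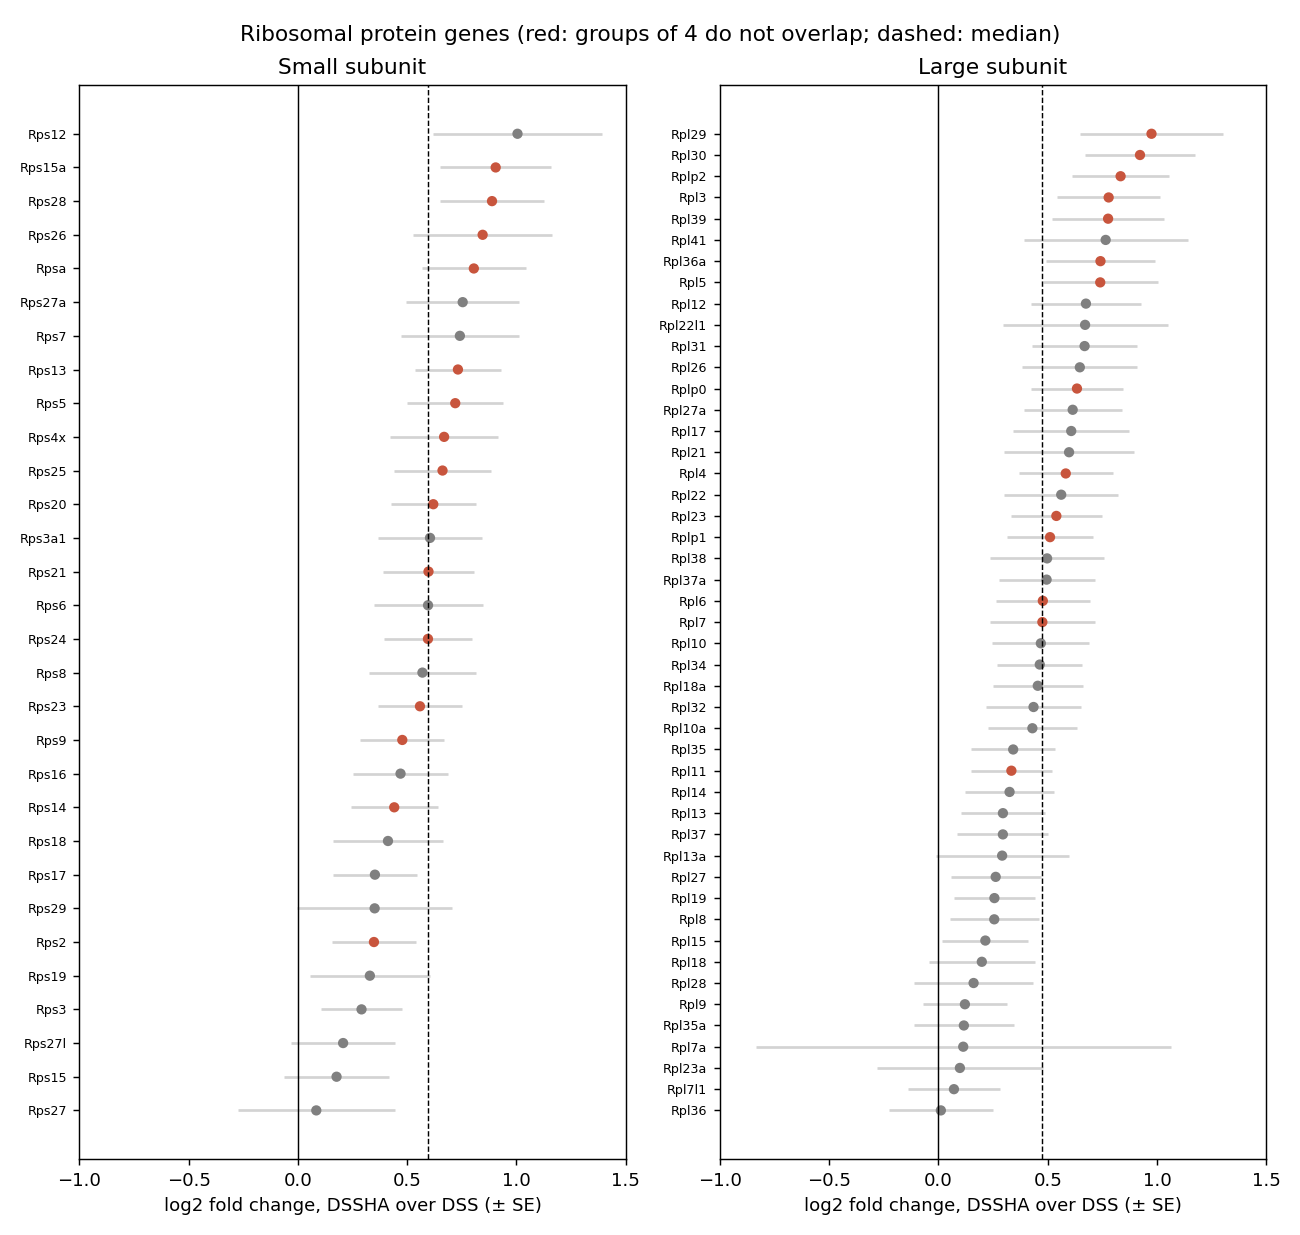
Log2 fold change (DSSHA over DSS, x axis) with its standard error for 30 small subunit genes (left; 1 is not shown) and the 47 large subunit genes (right), sorted by size; red points are genes whose 2 groups of 4 libraries do not overlap and dashed lines mark the medians over all 31 and 47 genes, 0.60 and 0.48. All points lie to the right of 0, from 0.01 for Rpl36 to 1.01 for Rps12.

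The fold changes of single genes were set beside their standard errors. Within the small subunit they ran from 0.08 to 1.01 and within the large subunit from 0.01 to 0.98, with a median standard error of 0.24 and 0.22. Of the 31 small subunit genes 21 lay within 1 standard error of their subunit's median, and of the 47 large subunit genes 30 did. All 78 lay within 2 standard errors of it. Each standard error is that of a gene's difference between groups, and it includes spread between libraries that members shared. It is not the error of a gene's distance from the median, so whether members differed from each other was not tested.

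Among small subunit proteins near the messenger RNA channel, Rps28 (chromosome 17, 33819027 to 33824562, GRCm38) had 56.1, 36.5, 55.8 and 47.2 CPM in DSS libraries 15, 48, 49 and 50. It had 66.9, 119, 96.3 and 79.8 CPM in DSSHA libraries 35, 45, 65 and 71. All DSSHA values were above all DSS values. The log2 fold change was 0.89 ± 0.24 (SE; edgeR adjusted p = 0.121), and without library 35 it was 1.01 and passed (edgeR adjusted p = 0.0235). Rps2, at the entry of that channel, had 306 to 334 CPM in the DSS group and 346 to 429.6 in the DSSHA group, a smaller but equally separated difference (log2 fold change 0.35 ± 0.19, edgeR adjusted p = 0.539). Rps23 and Rps9, which take part in accurate decoding, did not overlap between groups either, at 0.56 and 0.48.

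Rps3 and Rps15, which also lie close to the messenger RNA or the transfer RNA, overlapped between groups, at 0.29 and 0.18. In Rps3 the overlap came from library 71, at 160.3 CPM against 201 to 208 in the other 3 DSSHA libraries. Rps26, which touches the messenger RNA upstream of the codon being read and is mutated in some cases of Diamond-Blackfan anaemia, had 78.1, 81.9, 87.0 and 88.2 CPM in the DSS libraries. It had 274, 125, 107 and 96.4 CPM in DSSHA libraries 35, 45, 65 and 71. The groups did not overlap, but library 35 was far above the other 3 of its group, and the log2 fold change went from 0.85 (edgeR adjusted p = 0.295) to 0.39 without it.

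Rpsa, the small subunit protein also known as the laminin receptor, was the member with the most counts, 51305 over all libraries. It had 367, 243, 263 and 250.1 CPM in DSS libraries 15, 48, 49 and 50. It had 629, 504, 392 and 439 CPM in DSSHA libraries 35, 45, 65 and 71. The groups did not overlap, with DSS 15 nearest to the DSSHA group, and the log2 fold change was 0.81 ± 0.24 (SE; edgeR adjusted p = 0.161). Rps6, the substrate of the S6 kinases downstream of mTORC1, had 216, 178, 184 and 189 CPM in the DSS group. In the DSSHA group it had 427, 284, 242 and 207 CPM, where library 71 lay within the DSS range, and its log2 fold change was 0.60 ± 0.25 (SE; edgeR adjusted p = 0.371), or 0.35 without library 35.

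Rps27a, made as a fusion with ubiquitin that is cleaved off, had 57.7, 48.9, 53.2 and 82.4 CPM in the DSS group and 71.1, 110.4, 138 and 88.7 in the DSSHA group. Only DSSHA 35 and DSS 50 broke the separation, and the log2 fold change was 0.75 ± 0.26 (SE; edgeR adjusted p = 0.240). Rps12 had the highest fold change among the 78 members, 1.01 ± 0.39 (edgeR adjusted p = 0.307), and rested on library 35. It had 43.5 to 48.2 CPM in the DSS group, 46.9, 58.6 and 69.96 in DSSHA 71, 65 and 45, and 187 in DSSHA 35. Without that library it was at 0.37. Rps15a, at 0.91 ± 0.25 (edgeR adjusted p = 0.140), had 51.7 to 62.7 CPM in the DSS group and 73.1 to 162 in the DSSHA group, without overlap. Without library 35 it was at 0.63.

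The lowest small subunit fold changes belonged to Rps27 (0.08 ± 0.36, edgeR adjusted p = 0.959), Rps15 (0.18) and Rps27l (0.21). With the counts of its copies added Rps27 was at 0.45, and Rps15 was then the lowest. Rps27 ran from 33.2 to 73.7 CPM in the DSS group and from 23.6 to 82.5 in the DSSHA group, so that the DSS range lay inside the other. Rps19, the gene most often mutated in Diamond-Blackfan anaemia, was at 0.33, with 82.5 CPM in DSSHA 35, 141 to 193 in its 3 group mates, against 101 to 145 in the DSS group.

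In the large subunit, the stalk that recruits the GTP-binding translation factors is built on Rplp0 and carries Rplp1 and Rplp2, with Rpl12 at its base. Rplp2 (chromosome 7, 141447370 to 141451585) had 70.7, 55.6, 60.6 and 48.4 CPM in DSS libraries 15, 48, 49 and 50. It had 84.8, 130.3, 86.2 and 118 CPM in DSSHA libraries 35, 45, 65 and 71. The groups did not overlap, and its adjusted p was the lowest of the large subunit (log2 fold change 0.83 ± 0.22, edgeR adjusted p = 0.118). It passed without library 35 (0.92, edgeR adjusted p = 0.0366) and with DESeq2 (adjusted p = 0.0407).

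Rplp0 had 295, 258, 271 and 273 CPM in the DSS group and 465, 520.4, 381 and 336 in the DSSHA group (log2 fold change 0.63 ± 0.21, edgeR adjusted p = 0.226). Rplp1, the member with the highest level per length, had 275, 226, 234 and 207 CPM in the DSS group and 322, 377, 335 and 308 in the DSSHA group (log2 fold change 0.51 ± 0.20, edgeR adjusted p = 0.307). Transcripts of both were separated between groups, as were those of Rplp2. Among all members 29 of 78 separated upwards, and 4.14% of all genes tested did. Rpl12, at 0.68 (0.44 without library 35), overlapped through library 71 (121 CPM, against 98.1 to 126 in the DSS group).

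Rpl5 and Rpl11 bind 5S ribosomal RNA before it joins the large subunit and, when free of the ribosome, inhibit Mdm2 and so raise p53. Rpl5 had 148, 143, 136 and 137 CPM in the DSS group and 372, 213, 175 and 181 in the DSSHA group. Rpl11 had 167, 153, 156 and 148 CPM in the DSS group and 198, 211, 208 and 171 in the DSSHA group. Neither gene overlapped between groups, with log2 fold changes of 0.74 ± 0.26 and 0.33 ± 0.18 (edgeR adjusted p = 0.262 and 0.541). That of Rpl5 was 0.43 without library 35. In a list of p53 and its regulators and targets 0 of 9 tested genes passed, and Cdkn1a (p21) had 43.5 ± 3.47 CPM in the DSS group and 17.9 ± 15.3 in the DSSHA group (SD, n = 4 each; edgeR adjusted p = 0.332).

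Of the proteins that line the exit tunnel or its rim, Rpl4 had 323, 302, 299.9 and 294 CPM in the DSS group and 597, 458, 370.1 and 402 in the DSSHA group. It did not overlap between groups (log2 fold change 0.58 ± 0.22, edgeR adjusted p = 0.288). Rpl39, deep in the tunnel, had 56.6 to 62.4 CPM in the DSS group and 64.4 to 153 in the DSSHA group, also without overlap (0.78 ± 0.26, edgeR adjusted p = 0.216). Rpl26 was at 0.65, Rpl17 at 0.61 (0.38 without library 35), Rpl35 at 0.34, Rpl19 at 0.26 and Rpl23a at 0.10, and these 5 overlapped between groups. Tunnel proteins were thus spread over much of the subunit's range.

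The largest values of the large subunit were those of Rpl29 (0.98 ± 0.33, edgeR adjusted p = 0.229) and Rpl30 (0.92 ± 0.25, edgeR adjusted p = 0.130). Rpl30 had 91.3, 55.3, 57.8 and 59.3 CPM in the DSS group and 163, 138, 92.3 and 107 in the DSSHA group. DSS 15, the highest DSS library, nearly met DSSHA 65. Rpl29 had 60.3 to 81.8 CPM in the DSS group and 257, 117, 107 and 85.5 in DSSHA 35, 45, 65 and 71, and was at 0.52 without library 35. Rpl3, which reaches towards the peptidyl transferase centre, was at 0.78 ± 0.24 (edgeR adjusted p = 0.171), with 133 to 164 CPM against 188 to 330.5 and no overlap.

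Rpl41, a very short protein, varied widely between libraries. It had 88.9 to 160.4 CPM in the DSS group and 101, 369.5, 147 and 274 in DSSHA 35, 45, 65 and 71 (0.77 ± 0.38, edgeR adjusted p = 0.478). Rpl36 had the lowest fold change of all, 0.01 ± 0.24 (edgeR adjusted p = 0.991), with 162 to 180.5 CPM in the DSS group and 119, 222, 216 and 145 in DSSHA 35, 45, 65 and 71. Libraries 45 and 65 were above the DSS range, and 35 and 71 below it. Rpl9 and Rpl35a were at 0.12 each, and Rpl10, whose loading is a late step of large subunit maturation, was at 0.47.

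**Figure D4:**
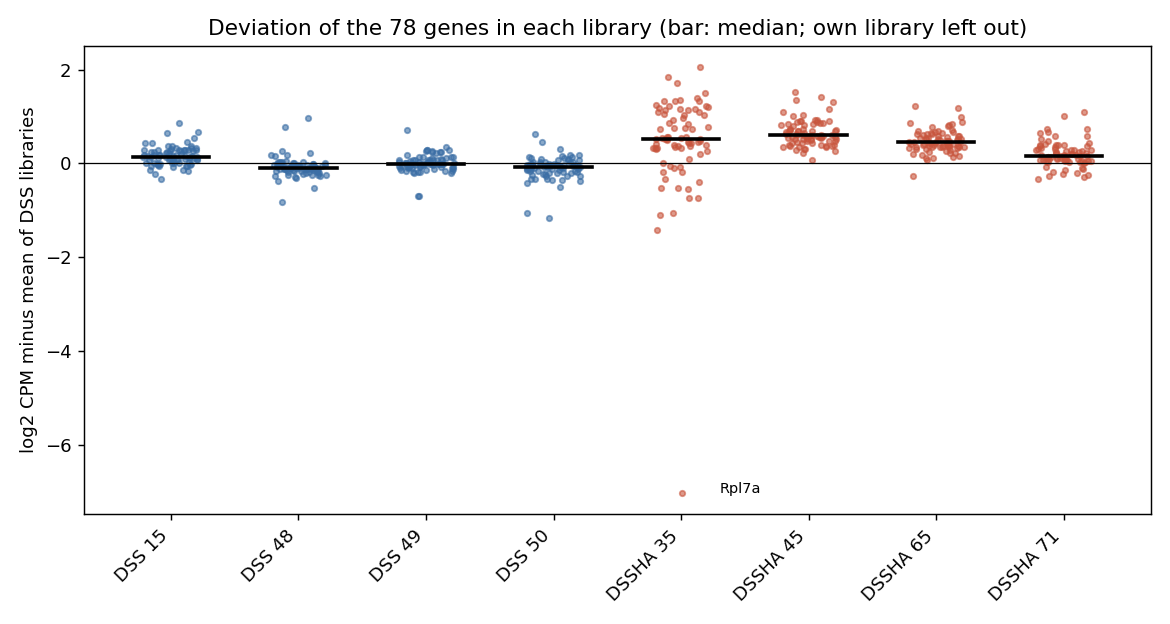
For each library (x axis), the log2 CPM of each of the 78 genes minus its mean over the DSS libraries, leaving out the library itself (y axis); black bars mark medians. The DSSHA medians are 0.52, 0.60, 0.45 and 0.16 for libraries 35, 45, 65 and 71, and library 35 is spread widest, with Rpl7a at -7.03.

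Measured gene by gene against the DSS mean, the median deviation was 0.15, -0.09, -0.01 and -0.07 in DSS 15, 48, 49 and 50, each compared with the other 3. It was 0.52, 0.60, 0.45 and 0.16 in DSSHA 35, 45, 65 and 71. In DSSHA 45 all 78 genes were above the DSS mean, in 65 it was 77, in 71 it was 67 and in 35 it was 62. Diet-alcohol 71 and DSS 15 were thus close to each other. The standard deviation over the 78 genes was 1.10 in library 35 and 0.19 to 0.28 in the other 7.

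Library 35 departed in both directions. It was the highest of its group in 35 genes and the lowest in 21. Besides the high values of Rps12, Rps26 and Rpl29 it had the lowest value of the 8 libraries for Rpl7a, with 0 counts where the others had 62 to 1059. A count of 0 in that library allows up to 0.168 CPM. It was also the lowest for Rpl23a (12.7 CPM, against 26.1 to 51.1 in the other 7), Rps29 (30.2, against 58.0 to 116) and Rpl28 (149, against 235 to 358). Over the genes, the median coefficient of variation was 9.83% in the DSS group and 23.5% in the DSSHA group, or 17.3% without library 35.

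Without library 35 the medians were 0.47 and 0.39 for the small and large subunits, and 77 of 78 genes were positive, against 50.8% of all genes tested. The exception was Rps27l, at -0.03. Several other members with low fold changes had higher ones without library 35: Rps27 was at 0.34, Rps15 at 0.33, Rps19 at 0.53 and Rps29 at 0.62 in the small subunit. In the large subunit Rpl23a was at 0.39, Rpl7a at 0.53, Rpl28 at 0.37, Rpl35a at 0.21, Rpl9 at 0.19, Rpl36 at 0.16 and Rpl7l1 at 0.11. Rpl22 went from 0.56 to 0.24 and Rps3a1 from 0.60 to 0.40. In that comparison 3 genes passed, Rps28, Rplp2 and Rps13 (the last, at 0.82 with edgeR adjusted p = 0.0355, was chosen after its values were seen), or 3 of 78 against 1.17% of all genes called higher. Rps13 had 50.4, 50.4, 49.2 and 47.5 CPM in the DSS group and 66.2, 100.4, 87.5 and 74.3 in the DSSHA group. These 3 genes were also called by DESeq2, with Rpl30 and Rps15a.

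Levels between genes were compared on the deposited FPKM scale, which divides counts by gene length and by an adjusted library size. Mean FPKM over the 8 libraries was highest for Rplp1 (560 ± 119; SD over 8 libraries), Rpl36 (448 ± 89.8), Rps15 (324 ± 70.4), Rps3a1 (281 ± 89.5) and Rplp0 (207 ± 57.7). It was lowest for Rpl13a (3.44 ± 0.915), Rpl22l1 (5.05 ± 2.53), Rpl7l1 (7.55 ± 1.15), Rpl7a (11.0 ± 7.54) and Rps15a (12.8 ± 5.69). The gene length in the table counts all annotated exons, so genes with long alternative transcripts, such as Rps15a at 6270 bases, have low FPKM for their counts.

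Rpl13a, the member closest to the count minimum with 965 counts, and Rpl36al, the first below it with 59, are both expressed genes in most tissues. Of the 84 matching genes, 5 had at least 50% of their span inside another annotated gene on the same strand: Rpl24, Rps10, Rpl36al, Rpl13a and Rpl13. The first 4 had 11, 30, 59 and 965 counts, and Rpl13 had 24463. The other 3 names with fewer than 1000 counts, Rpl10l, Rpl39l and Rpl3l, are copies with expression known mainly from testis or muscle. Whether reads in shared spans were dropped by the counting was not tested, and the levels of these genes are uncertain.

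Processed copies of ribosomal protein genes hold reads too. Rps10 had 30 counts while its 4 named copies had 4511, and Rpl17 had 5494 while its 11 copies had 19872. Rps27 had 6604 counts and its copies, chiefly the retrogene Rps27rt, had 6073. The values of these parents are therefore uncertain singly. With the counts of copies named after their parents added to those parents, the median log2 fold change was 0.59 for the small and 0.48 for the large subunit. None passed, against 1.28% of all genes. Copies under any other name were not added, and this alternative was chosen after the data were seen. Of 52 ribosomal protein pseudogenes tested, 39 were positive, against 49.5% of all genes tested, and none passed, with a median of 0.33.

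Some members have paralogues that can take their place in the ribosome. Rps27l, a target of p53, had 7162 counts and 71.1 FPKM, against 6604 counts and 51.1 FPKM for Rps27. Rps27l had 48.6, 53.5, 60.4 and 57.8 CPM in the DSS group and 91.9, 58.1, 59.1 and 45.2 in the DSSHA group, so only library 35 was above the DSS range. Rpl22l1, whose level is known to be held down by Rpl22, had 7.86, 7.93, 8.99 and 6.85 CPM in the DSS group. In the DSSHA group it had 21.2, 12.04 and 12.3 CPM in libraries 45, 65 and 71, all above the DSS group, and 4.70 in library 35, below it.

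The log2 fold change of Rpl22l1 was 0.67 ± 0.38 (SE; edgeR adjusted p = 0.551), or 0.95 without library 35 (edgeR adjusted p = 0.0678). Its parent Rpl22 had 174 CPM in DSSHA 35, 77.5 to 94.9 in its 3 group mates and 71.5 to 78.2 in the DSS group, so library 35 was high for Rpl22 and low for Rpl22l1. Rpl7l1, a nucleolar assembly protein rather than a substitute for Rpl7, was at 0.07 ± 0.21 (edgeR adjusted p = 0.941), while Rpl7 was at 0.48, and at 0.23 without library 35. Rpl7 had 204 to 209 CPM in the DSS group, 424 in DSSHA 35 and 213 to 270.5 in its 3 group mates. Rpl10l had 0 counts, Rpl39l 2 and Rpl3l 15, and none of these 3 was tested.

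**Figure D5:**
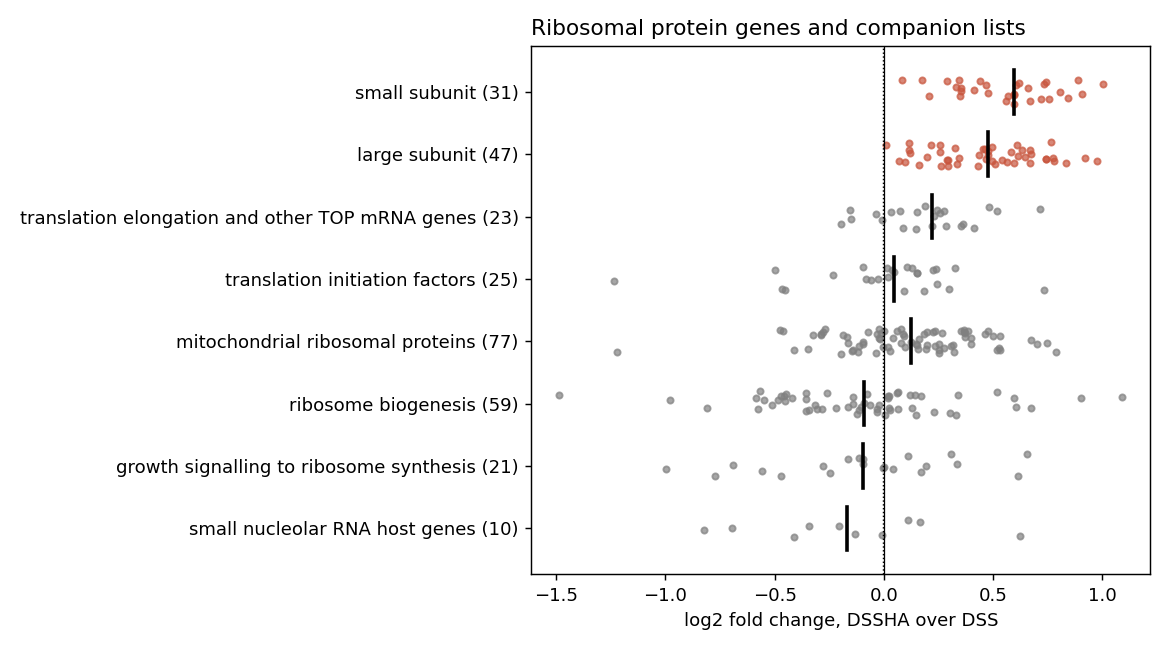
Log2 fold change (DSSHA over DSS, x axis) of every tested gene in the 2 subunits (red) and in 6 companion lists (grey), with black bars at the medians and the number tested in brackets. The subunits have medians of 0.60 and 0.48, with no point below 0, and the companion medians run from -0.17 to 0.22.

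Some ribosomal proteins have names outside the rule. Fau, which encodes a small subunit protein fused to a ubiquitin-like domain, had 172 ± 17.8 CPM in the DSS group and 234 ± 21.2 in the DSSHA group (SD, n = 4 each; log2 fold change 0.44, edgeR adjusted p = 0.396), without overlap. Rack1, a signalling scaffold on the small subunit, was at 0.33 (edgeR adjusted p = 0.61).

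Among 23 elongation factor genes and other TOP messenger RNAs, 18 were positive and none passed, with a median of 0.22 (0.15 without library 35). For this list and those below, the share of all genes tested that were positive was 49.5%, or 48.8% under the mitochondrial covariate. In the fit with the mitochondrial share as covariate, 14 were positive and the median was 0.072. Tpt1, a growth-related protein, was highest at 0.72 ± 0.25 (SE; edgeR adjusted p = 0.258). Eef1a1, which brings aminoacyl-tRNA to the ribosome, was at 0.35, or 0.08 without library 35 (4374 CPM, against 2166 to 2757 in its group mates), and Eef2, which moves the ribosome along, at 0.22. Of 25 initiation factors 16 were positive and none passed, with a median of 0.05, which was -0.21 under that covariate with 6 positive and -0.055 without library 35. Eif4g1, the scaffold of the cap-binding complex, had 80.1 ± 6.85 CPM in the DSS group and 56.7 ± 3.75 in the DSSHA group (SD, n = 4 each; log2 fold change -0.50, edgeR adjusted p = 0.265), without overlap.

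Ribosome assembly genes did not share the pattern in their counts: 24 of 59 tested (40.7%) were positive, the median was -0.09 and none passed. Their sums were 695 to 775 CPM in the DSS group and 617 to 666 in the DSSHA group, lower there without overlap. Ddx21, a nucleolar helicase, had 20.3 ± 0.965 CPM in the DSS group and 11.5 ± 3.36 in the DSSHA group (SD, n = 4 each; edgeR adjusted p = 0.157), while Heatr1, of the small subunit processome, had 4.88 ± 1.79 and 10.6 ± 3.28 (edgeR adjusted p = 0.188). Of 77 mitochondrial ribosomal protein genes 48 were positive and none passed, with a median of 0.12 that was -0.041 under the covariate, with 35 positive. As a share of nuclear counts they took 0.257% ± 0.0273 in the DSS group and 0.275% ± 0.0133 in the DSSHA group (SD, n = 4 each).

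In the list of growth signalling genes 9 of 21 were positive and none passed (median -0.10). Without library 35, 1 of 22 passed, Deptor, which was lower (log2 fold change -0.77, edgeR adjusted p = 0.048). Of all 12097 genes tested in that fit, 166 passed and were lower. With all libraries Deptor was at -0.47 (edgeR adjusted p = 0.528). Larp1, which binds TOP messenger RNAs, had 55.6 ± 2.12 CPM in the DSS group and 32.6 ± 12.5 in the DSSHA group (SD, n = 4 each; log2 fold change -0.78, edgeR adjusted p = 0.281), without overlap. Myc, a transcriptional activator of ribosome synthesis, was scarce at 1.59 ± 0.838 and 0.770 ± 0.190 CPM (SD, n = 4 each; edgeR adjusted p = 0.633). Of 10 tested host genes of small nucleolar RNAs, whose transcripts also carry TOP motifs, 3 were positive and none passed (median -0.17).

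Markers of other cells in liver differed between libraries too. Of 12 neutrophil markers 4 were tested, and 3 passed the test and were higher: S100a8, S100a9 and Retnlg. Of all genes tested, 0.588% passed and were higher. The list summed to 4.19 to 15.6 CPM in the DSS group and 29.8 to 63.3 in the DSSHA group. With the mitochondrial share as covariate only Retnlg of these 3 passed (edgeR adjusted p = 0.030, against 0.052 for S100a9 and 0.091 for S100a8). Of 12 Kupffer cell and macrophage markers 1 passed and was higher, Marco, and the list had sums of 250.3 to 408 and 418 to 771 CPM. Marco did not pass without library 35 (edgeR adjusted p = 0.061) or under the covariate (edgeR adjusted p = 0.087), and without Marco the sums overlapped, at 243 to 395 and 321 to 641 CPM. B and plasma cell markers summed to 4.49 to 23.7 CPM in the DSS group and 1.44 to 12.4 in the DSSHA group, and T and NK cell markers to 3.12 to 5.55 and 1.27 to 7.51. Erythroid markers summed to 2247 CPM in DSS 15, 174 to 277 in the other 3 DSS libraries and 398 to 808 in the DSSHA group. DSS 15 also had the highest ribosomal protein sums of its group, and DSSHA 35 was highest of its group in both. However, DSSHA 71, lowest in ribosomal protein sums, had 676 CPM of erythroid markers, against 511 and 398 in DSSHA 45 and 65. Endothelial cell markers had a median log2 fold change of -0.318, with 2 of 8 positive. For stellate cell markers it was -0.299, with 2 of 7 positive. None passed, and under the covariate the medians were 0.248 and 0.182, with 5 positive in each list. The sums of both lists overlapped between groups. Stellate cell markers summed to 261 CPM in DSSHA 35, 52.5 to 188 in its group mates and 61.1 to 181 in the DSS group. No gene of these lists was at 0 counts over all libraries. Their part in the ribosomal protein values was not tested. Hepatocyte markers had a median log2 fold change of -0.48, and 2 of 11 were positive.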

How the data were processed

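Liver RNA from 8 mouse libraries was analysed, 4 per group. The deposited values include an unnormalized count made by the authors for every gene. The deposited FPKM was checked to be the authors' count divided by gene length and by 1 effective library size per library. The deposited log2 fold change and p-value columns are the authors' own comparison. Builds (GRCm38, mm10) come from the submitters' processing notes. The aligner, the counter and whether strand was used: not given in the sources used here.

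The whole table was filtered with filterByExpr (11729 genes), TMM-normalized and tested with edgeR 4.0.16 (quasi-likelihood, robust; R 4.3.3), with Benjamini-Hochberg adjustment over all genes tested and a threshold of 0.05. CPM uses TMM library sizes, and log2 CPM adds a prior count of 2. Alternatives were DESeq2 1.42.0, limma 3.58.1 (voom and log2 FPKM), other normalizations and filters, the mitochondrial share as a covariate, and each library left out in turn; added copies and counts of separated genes were chosen after seeing the data. The test was tried on simulated counts. Medians and sums over members have no test. Depths cover counting error only.

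The members and lists were chosen with earlier results of these data known. Genes named are those past the threshold, the 6 highest and 6 lowest fold changes per subunit, the 5 highest and 5 lowest FPKM, members with a listed role, those next to the count minimum, and up to 3 genes per companion list by p; others named are examples chosen after their values were seen. No promoter or protein sequence was used. Single values of 1 member and of 1 gene of a companion list are not reported here.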

Additional observations from a re-analysis of the deposited data

Results flagged for a closer look

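Of 100 groups of 4 libraries (46 named genes and summary shares and sums, in each treatment group), 7 had 1 library set far from the other 3 relative to the group's range; chance gives about 1 in 20. Library 35 of the DSSHA group was the distant one for 3 genes: Rps12 at 187 CPM (46.9 to 69.96 in the other 3), Rps26 at 274 CPM (96.4 to 125) and Rpl23a at 12.7 CPM (43.5 to 49.1). DSS library 15 was high for 3 genes: Rpl30 at 91.3 CPM (55.3 to 59.3), Rps9 at 194 CPM (167 to 171) and Rpsa at 367 CPM (243 to 263). Diet-alcohol library 71 was low for Rps3, at 160.3 CPM (201 to 208).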

How the results depend on the processing

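No paired analysis was possible because DSS and DSSHA have no library number in common. In edgeR 0 small and 0 large subunit genes were called. DESeq2 called 3 and 2, and leaving out 1 library gave 0 to 2 and 0 to 1, with calls only without DSSHA 35. The medians kept their sign in every alternative run, with 0.47 to 0.66 for the small and 0.39 to 0.56 for the large subunit when 1 library was left out. The difference in share of nuclear counts was then 0.86 to 1.24 percentage points. The medians moved by less than the SD of the median deviations of the DSSHA libraries (0.19 small, 0.18 large). Without DSSHA 35 the small subunit median moved by more than that SD in the DSS libraries (0.11).

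Of 1012 values for 46 named genes, 980 kept their sign and side of the threshold, 6 passed it (Rplp2, Rps28, Rpl30 and Rps15a) and 26 changed sign, in 7 genes with log2 fold changes near 0. With limma-voom, Rpl23a was at -0.048, Rpl36 at -0.034 and Rpl7a at -1.97. With limma on log2(FPKM + 1) they were at -0.023, -0.037 and -0.46, and on log2(FPKM + 0.1) at -0.030, -0.037 and -1.22. With the mitochondrial share as a covariate, Rpl7a was at -0.079 and Rpl7l1 at -0.15. When 1 library was left out, Rpl23a ran from -0.058 to 0.39, Rpl35a from -0.027 to 0.23, Rpl36 from -0.12 to 0.16, Rpl7a from -0.56 to 0.53, Rpl7l1 from -0.013 to 0.17, Rps27 from -0.17 to 0.34 and Rps27l from -0.025 to 0.34. The cause was not tested. Library 35, with 0 counts of Rpl7a, limits what can be said of that gene.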
